A study of Mus musculus with 10 samples.

Results

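Costimulatory receptors carry the second signals that set how strongly a lymphocyte reacts. The 9 genes described here are Icos, Cd28, Tnfrsf4, Tnfrsf9, Tnfrsf18, Tnfrsf25, Tnfrsf1a, Tnfrsf1b and Cd27, taken by symbol from the 54838 gene rows of the count table, with no use of their values. All 9 have a row, but only 5 (Icos, Cd28, Tnfrsf4, Tnfrsf25 and Tnfrsf1b) held enough reads to be compared between genotypes. Total RNA was sequenced from group 2 innate lymphoid cells (ILC2), tissue lymphocytes without antigen receptors that secrete type 2 cytokines, sorted from the lungs of C57BL/6 mice after papain, a protease allergen, had inflamed them. The KO group holds 5 libraries from mice labelled c-Maf KO, and the WT group 5 libraries from wild-type mice that were their cohoused littermates. The labels used here do not say which allele or Cre driver removed c-Maf, so whether it was missing from ILC2 alone is not known. Each library has a number of its own, but the labels do not state in words that each is a separate mouse, and the p-values therefore describe only how much these libraries vary. Every KO number is above every WT number, and this order cannot be told apart from genotype.

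ICOS and CD28 are immunoglobulin-family receptors. ICOS binds ICOS ligand, CD28 binds CD80 and CD86, and both recruit PI3-kinase to their tails. The TNF receptor family members bind trimeric ligands: OX40 (Tnfrsf4) binds OX40 ligand, DR3 (Tnfrsf25) binds TL1A, GITR (Tnfrsf18) binds GITR ligand, 4-1BB (Tnfrsf9) binds its own ligand, CD27 binds CD70, and both TNF receptors (Tnfrsf1a and Tnfrsf1b) bind TNF. Most of them bind TRAF adaptors and pass the signal to NF-kB. ILC2 are known to depend on ICOS for survival and cytokine output, and to answer OX40 ligand, TL1A and GITR ligand.

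The libraries differ in depth and in content. KO libraries held 3620002 to 9867580 counts and WT libraries 21400938 to 24489987. Of the 7490 genes tested, 18.0 to 45.4% had over 3 counts in a given KO library, against 96.5 to 99.3% in a given WT library. TMM scaling factors, which correct for a few genes filling a library, were 0.180 to 0.928 in KO and 1.46 to 1.91 in WT libraries. The 8 red cell marker genes made up 190400 CPM (counts scaled to a library total of 1e6) in KO library 1, 120 to 759.5 in the other KO libraries and 9.10 to 24.97 in WT libraries. Maf, the targeted gene, had 0, 0, 0, 108 and 0 counts in KO libraries 1 to 5, against 3252, 3832, 1412, 1696 and 2727 in WT libraries 1 to 5. The library labelled KO 4 therefore held Maf reads. Even this targeted gene did not pass in edgeR, where a log2 fold change of -4.34 had an adjusted p of 0.141. The exact permutation test called Maf lower (adjusted p = 0.0268). That test is 1 of 5 alternatives in which Maf passed, and in 16 others Maf did not pass. A gene that did not pass is therefore not shown to be unchanged. Of 12 ILC2 markers, 8, 11, 10, 12 and 12 had over 3 counts in KO libraries 1 to 5, and all 12 did in every WT library. Of 12 T cell markers, 1 to 3 had over 3 counts in a KO library and 5 to 7 in a WT library; Trbc2, Trbc1 and Cd3g had 1540, 921 and 156 counts over the KO libraries, against 21250, 8972 and 6172 over the WT libraries, while Cd8a and Cd8b1 were at 0 throughout and Cd4 had 1 count in all. These sums are not scaled for depth. The TMM-scaled means in KO and WT libraries were 44.7 and 106 CPM for Trbc2, and 46.3 and 44.5 CPM for Trbc1. They were 11.8 and 30.8 CPM for Cd3g, and 7.03 and 4.65 CPM for the T cell marker Cd3e. In bulk RNA, fewer cells of a type and less RNA per cell cannot be told apart.

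Of the 5 receptor genes tested, only Tnfrsf4 was called lower in KO libraries, by the test described below. It was at 0 counts in KO libraries 1 to 4 and at 1 count in KO library 5, while every WT library had 68 counts or more. Tnfrsf4 therefore passed the filter on low counts through its WT reads alone. With no such filter it was still lower (log2 fold change -6.93, edgeR adjusted p = 0.0188). The filter shapes the calls over all genes: 112 were higher in KO with it and 2345 without it. Icos was readable in all 10 libraries, and Cd28, Tnfrsf25 and Tnfrsf1b were present in all WT libraries but mostly in 1 KO library each. By edgeR's quasi-likelihood test with Benjamini-Hochberg adjustment over the 7490 genes, 1 of the 5 receptor genes was lower in KO at an adjusted p under 0.05, beside 27.1% of all genes tested, and 0 were higher, beside 1.5%. DESeq2 also called 1 lower, beside 23.3% of its genes. The median log2 fold change of KO over WT was -1.57 over the 5 genes and -0.47 over all genes tested. Of the 5 genes, 4 were missing (3 counts or fewer) from at least 1 KO library, as were 92.9% of all genes tested. Over the 5 genes, 14 of 25 values in KO libraries were at most 3 counts (56.0%), against 64.05% of the same values over all genes tested; reads were missing from KO libraries at a rate near that of all genes tested.

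**Figure D1:**
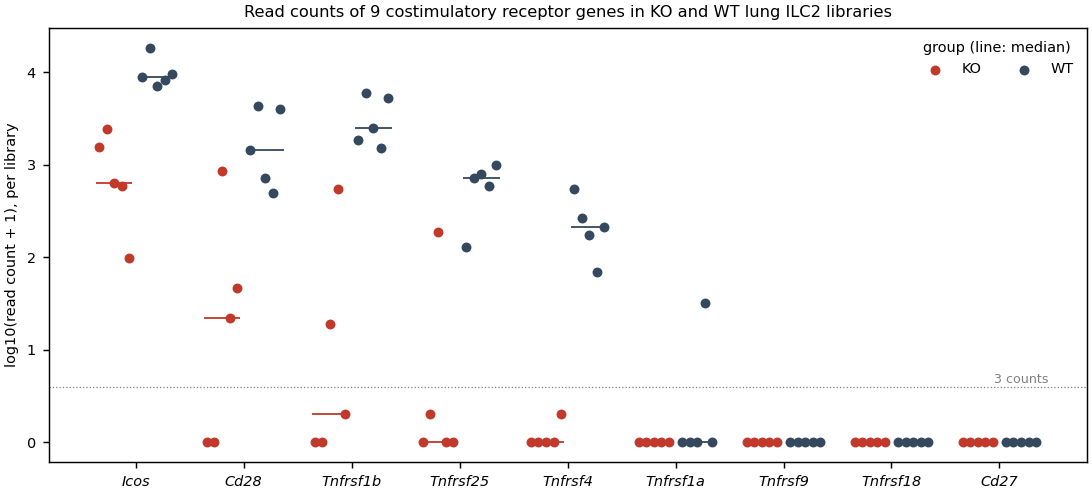
Read counts of the 9 receptor genes in each library, as log10(count + 1), with KO libraries in red left of WT libraries in blue and a line at each group's median. The dotted line marks 3 counts: Tnfrsf4 has 0 to 1 counts in KO and 68 to 542 in WT libraries, and Tnfrsf9, Tnfrsf18 and Cd27 are at 0 in all 10.

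Icos (ENSMUSG00000026009, chromosome 1, 60977927 to 61000320, plus strand, GRCm38) encodes the receptor for ICOS ligand and was the most abundant of the set. It had 1562, 2418, 634, 590 and 98 counts in KO libraries 1 to 5, against 8793, 18317, 7069, 8200 and 9606 counts in WT libraries 1 to 5. After TMM scaling these were 1838, 362.7, 86.8, 84.1 and 42.9 CPM in the KO libraries, against 251.9, 409.4, 212.3, 181.4 and 218.6 CPM in the WT libraries. On this scale KO library 1 lay above every WT library, KO library 2 lay among them, and the other 3 lay below every one. The TMM-scaled means were 483 ± 768 CPM in KO and 255 ± 90.02 CPM in WT libraries (SD, n = 5 each), and the level varied 42.8-fold across KO and 2.26-fold across WT libraries. The log2 fold change of KO over WT was 0.92 with an SE of 1.25 (edgeR adjusted p = 0.647), and a two-sided exact permutation test of log2(CPM + 1) gave an adjusted p of 0.806.

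The direction for Icos was not settled by these data, because it turned with the scaling and with 1 library. In CPM by library size alone, Icos was at 328, 266, 73.3, 59.8 and 27.1 CPM in KO libraries 1 to 5, against 365, 748, 330.3, 340.0 and 411 CPM in WT libraries 1 to 5. Every KO library then lay below every WT library, and the log2 fold change was -1.52 (edgeR adjusted p = 0.393). Leaving out KO library 1, which has the smallest TMM factor and the red cell transcripts, gave -0.83 with TMM scaling (edgeR adjusted p = 0.596). Icos was among the 7.06% of tested genes with over 3 counts in every KO library. Its mean TMM-scaled level per kilobase of exon ranked 314 of 7485 genes in KO and 184 of 7485 in WT libraries.

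Cd28 (ENSMUSG00000026012, chromosome 1, 60716800 to 60773359, plus strand) encodes the receptor for CD80 and CD86. It lies 205 kb before Icos, with Ctla4, the inhibitory receptor for the same ligands, between them. Cd28 had 0, 0, 858, 21 and 46 counts in KO libraries 1 to 5, against 1439, 4310, 724, 494 and 4032 counts in WT libraries 1 to 5. TMM-scaled, this was 0, 0, 117.5, 2.99 and 20.2 CPM in the KO libraries, against 41.2, 96.3, 21.75, 10.9 and 91.7 CPM in the WT libraries. KO library 3 lay above every WT library and held 92.8% of the KO counts, while 3 of the other KO libraries lay below every WT library. Cd28 was missing from 2 KO libraries, and 82.9% of all genes tested were missing from 2 or more. The TMM-scaled means were 28.1 ± 50.7 CPM in KO and 52.4 ± 39.6 CPM in WT libraries (SD, n = 5 each). The log2 fold change was -0.89 with an SE of 1.78 and did not pass (edgeR adjusted p = 0.769). Leaving out KO library 3 moved it to -2.76, which did not pass either (edgeR adjusted p = 0.235). KO library 3 also held 574 counts of the T cell receptor gene Trbc1, with 0 of Cd3e and 119 of Cd3g. The T cell markers summed to 103 CPM there, inside the range of 44.7 to 169 CPM of the KO libraries, and their part in the Cd28 level was not tested.

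Tnfrsf4 (ENSMUSG00000029075, chromosome 4, 156013843 to 156016612, plus strand) encodes OX40, the receptor for OX40 ligand. It had 0, 0, 0, 0 and 1 counts in KO libraries 1 to 5, against 542, 267, 172, 68 and 214 counts in WT libraries 1 to 5. TMM-scaled, the single count in KO library 5 was 0.438 CPM, against 15.5, 5.97, 5.17, 1.504 and 4.87 CPM in the WT libraries. All 5 KO libraries lay below every WT library, which was so for 28.9% of all genes tested on this scale. The TMM-scaled means were 0.0876 ± 0.196 CPM in KO and 6.61 ± 5.27 CPM in WT libraries (SD, n = 5 each). The log2 fold change was -6.79 with an SE of 1.49 (edgeR adjusted p = 0.00196). The ratio of counts per scaled library size, KO over WT, was 0.00664, with an exact 95% interval of 0.000168 to 0.037 that covers counting error only, as do all such intervals here. The two-sided exact permutation test gave p = 0.00794, the smallest possible with 5 against 5 libraries, and an adjusted p of 0.0268, beside 32.2% of all genes tested that were lower by that test.

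Depth limits this result for Tnfrsf4. In KO libraries 1 to 5, 3 counts correspond to 3.53, 0.450, 0.411, 0.428 and 1.31 CPM, beside the WT levels of 1.504 to 15.5 CPM. With WT libraries thinned to the smallest total they had 82, 38, 24, 9 and 30 counts, against 0 to 1 in the KO libraries, and Tnfrsf4 no longer passed the filter, so it could not be tested. Like Tnfrsf4, 22.3% of all genes tested were missing (3 counts or fewer) from all 5 KO libraries. Markers of other cells differed between the groups in both directions. T cell markers were at 44.7 to 169 CPM in KO and 110 to 284 CPM in WT libraries, NK cell markers at 0 in every KO library and 4.18 to 16.3 CPM in WT libraries, and macrophage, dendritic cell and granulocyte markers at 0 to 36.5 CPM in KO and 2.39 to 305 CPM in WT libraries. The red cell markers were at 190.6 to 1065000 CPM in KO and 6.27 to 13.29 CPM in WT libraries, and markers of epithelium, endothelium and stroma at 3154 CPM in KO library 1, 0 to 4.38 CPM in the other KO libraries and 30.8 to 94.5 CPM in WT libraries. That last sum rests mainly on single genes. Col1a2 gave 2615 of its 2681 counts in KO library 1, where Col1a1 and Epcam were at 0, and Pecam1 was its largest part in every WT library. Of the NK cell markers, Ncr1 and Eomes were at 0 in all libraries, and Klrk1, Prf1 and Gzma were at 0 in KO libraries and had 1075, 426 and 147 counts over the WT libraries. The part of these cells in the Tnfrsf4 result was not tested.

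Tnfrsf25 (ENSMUSG00000024793, chromosome 4, 152115934 to 152120119, plus strand) encodes DR3, the death-domain receptor for TL1A. It had 0, 1, 188, 0 and 0 counts in KO libraries 1 to 5, against 127, 713, 791, 587 and 982 counts in WT libraries 1 to 5. TMM-scaled, KO libraries 2 and 3 were at 0.150 and 25.75 CPM and the other 3 at 0, against 3.64, 15.9, 23.8, 13.0 and 22.3 CPM in the WT libraries. KO library 3, with 99.5% of the KO counts, lay above every WT library, and the other 4 lay below every one. It was missing from 4 KO libraries, as 51.2% of all genes tested were from 4 or more. The means were 5.18 ± 11.5 CPM in KO and 15.7 ± 8.09 CPM in WT libraries (SD, n = 5 each), and the log2 fold change of -1.57 with an SE of 1.66 did not pass (edgeR adjusted p = 0.547). The two-sided exact permutation test gave an adjusted p of 0.106. Without KO library 3 the log2 fold change was -7.94 and passed (edgeR adjusted p = 0.00563), so 1 library decides this call.

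Tnfrsf1b (ENSMUSG00000028599, chromosome 4, 145213463 to 145246870, minus strand) encodes TNFR2, the TNF receptor without a death domain. It had 0, 0, 18, 551 and 1 counts in KO libraries 1 to 5, against 1854, 5967, 2514, 1527 and 5268 counts in WT libraries 1 to 5. TMM-scaled, this was 0, 0, 2.47, 78.6 and 0.438 CPM in the KO libraries, against 53.1, 133, 75.5, 33.8 and 119.9 CPM in the WT libraries. KO library 4 held 96.7% of the KO counts and lay within the WT range, and the other 4 lay below every WT library. It was missing from 3 KO libraries, as 70.9% of all genes tested were from 3 or more. The means were 16.3 ± 34.8 CPM in KO and 83.1 ± 42.6 CPM in WT libraries (SD, n = 5 each), and the log2 fold change of -2.34 with an SE of 1.87 did not pass (edgeR adjusted p = 0.411). The two-sided exact permutation test gave an adjusted p of 0.0838. Without KO library 4 the log2 fold change was -6.59 and passed (edgeR adjusted p = 0.0144), and with KO library 4 kept it was -5.83 and passed with limma voom (adjusted p = 0.0158), which called 33.2% of all genes tested lower in KO, and 37.6% with sample quality weights. KO library 4 also held the 108 Maf counts and 142 counts of the B cell marker Ighm, which was at 0 in the other 4 KO libraries and at 390 to 4018 counts in WT libraries. Of 6 B cell markers 3 had over 3 counts in KO library 4, while Cd79a and Cd79b were at 0 there and in every other KO library. The part of B cells in the Tnfrsf1b level was not tested.

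These single-library levels were common in the KO group. Among genes with at least 10 counts over the KO libraries, 50.7% had 90% or more of them in 1 library, as Cd28, Tnfrsf25 and Tnfrsf1b did, against 0.174% of genes counted the same way over the WT libraries. The library that held the counts was KO library 3 for Cd28 and Tnfrsf25 and KO library 4 for Tnfrsf1b. By library size alone, 3 of the 5 genes (Icos, Tnfrsf4 and Tnfrsf1b) had every KO library below every WT library, beside 37.1% of all genes tested.

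**Figure D2:**
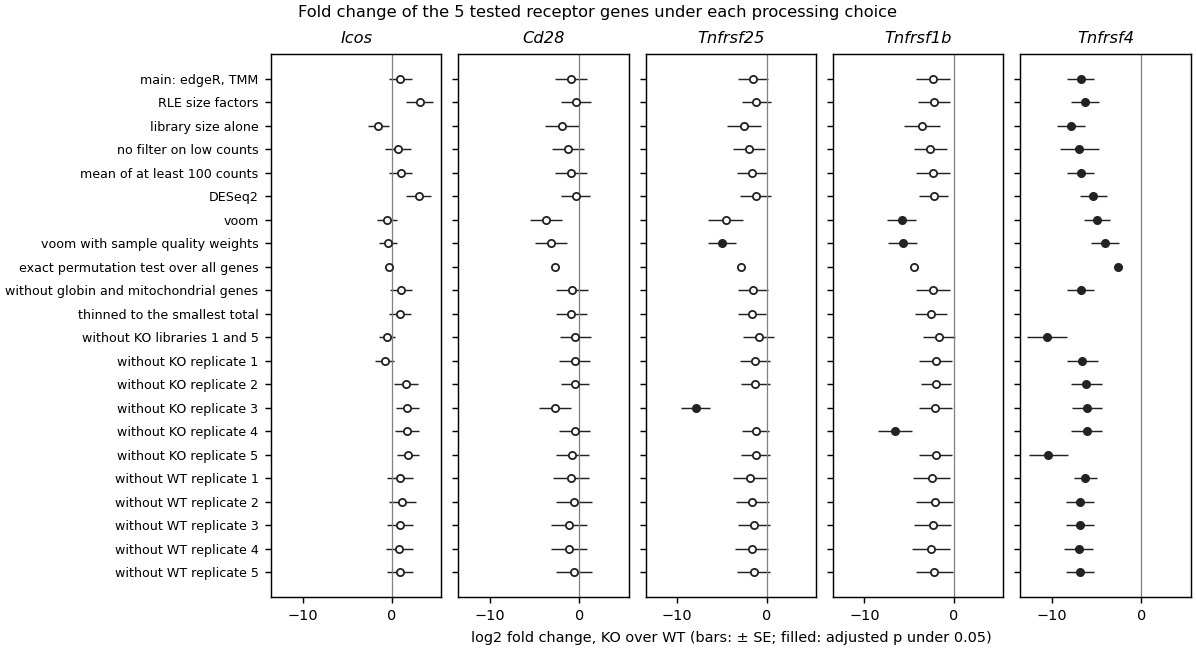
log2 fold change of KO over WT with its SE for the 5 receptor genes under the processing described and 21 alternatives. Points are filled where the adjusted p was under 0.05. Each edgeR SE was worked back from its test, and the permutation row is a difference of mean log2(CPM + 1) without an SE. Tnfrsf4 is filled wherever it was tested, Tnfrsf25 and Tnfrsf1b mainly when the KO library with their reads is left out or by voom, and Icos lies on either side of 0.

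Tnfrsf4, Tnfrsf25 and Tnfrsf1b were each missing from 3 or more KO libraries, as were 70.9% of all genes tested. The promoters of these 3 TNF receptor genes are printed because c-Maf is a DNA-binding factor, and its binding to them was not tested. They run from 250 bases before to 50 bases after a RefSeq start on GRCm38.p6, 5′ to 3′ on the gene's strand: chr4:156013445-156013744, plus, for Tnfrsf4, chr4:152115684-152115983, plus, for the first of the starts listed for Tnfrsf25, and chr4:145246821-145247120, minus, for Tnfrsf1b. The motifs searched on both strands were TGCTGAC (a MAF half-site, in 4.67% of 32851 RefSeq promoters of this length), TGANTCA (an AP-1 site, in 7.81%) and an NF-kB site (GGG, any 2 bases, then TTTCC, in 1.63%). The first motif can share bases with the second. Capitals mark a match.
Tnfrsf4: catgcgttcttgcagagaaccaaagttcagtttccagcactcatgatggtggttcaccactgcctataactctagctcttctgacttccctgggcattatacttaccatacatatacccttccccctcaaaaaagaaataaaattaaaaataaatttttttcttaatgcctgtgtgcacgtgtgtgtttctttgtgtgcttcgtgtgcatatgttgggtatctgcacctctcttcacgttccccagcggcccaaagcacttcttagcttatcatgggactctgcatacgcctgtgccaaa
Tnfrsf25: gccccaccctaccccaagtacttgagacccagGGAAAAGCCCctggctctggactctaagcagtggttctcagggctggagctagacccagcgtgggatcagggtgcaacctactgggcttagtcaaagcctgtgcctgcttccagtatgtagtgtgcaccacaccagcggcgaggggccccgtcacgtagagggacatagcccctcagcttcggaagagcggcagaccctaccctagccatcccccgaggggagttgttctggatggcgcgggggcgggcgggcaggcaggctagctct
Tnfrsf1b: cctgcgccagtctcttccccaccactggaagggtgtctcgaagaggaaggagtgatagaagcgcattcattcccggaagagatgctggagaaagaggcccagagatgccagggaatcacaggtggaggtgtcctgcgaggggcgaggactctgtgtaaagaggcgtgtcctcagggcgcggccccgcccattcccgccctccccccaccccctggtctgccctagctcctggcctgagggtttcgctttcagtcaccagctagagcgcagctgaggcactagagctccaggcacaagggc
The MAF half-site was in none of the windows of the 7 receptor genes with a promoter in the table. The Tnfrsf25 window holds an NF-kB match on the opposite strand that begins 218 bases before the start. The Tnfrsf4 and Tnfrsf1b windows hold no match to the 3 motifs, which says only that these letters are not in these windows. A second start listed for Tnfrsf9 has an NF-kB match 43 and an AP-1 match 15 bases before it.

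Tnfrsf1a (ENSMUSG00000030341, chromosome 6, 125349362 to 125362484, plus strand) encodes TNFR1, the TNF receptor with a death domain. It was at 0 counts in all 5 KO libraries and in 4 WT libraries, and had 31 counts, or 0.686 CPM, in WT library 4. No other annotated gene overlaps it, and it did not pass the filter. With reads in only 1 library, every split of the libraries gives the same absolute difference, so a permutation test could not inform on this gene. WT library 4 also had the highest sum of the 12 macrophage, dendritic cell and granulocyte markers, 305 CPM against 2.39 to 77.9 CPM in the other WT libraries, with 11144 counts of Lyz2, and their part in the Tnfrsf1a reads was not tested. Within WT libraries, TNFR2 was therefore the readable TNF receptor, with 1527 to 5967 counts.

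The other 3 genes gave no comparison between the genotypes. Tnfrsf18 (ENSMUSG00000041954, chromosome 4, 156026164 to 156028895, plus strand), Cd27 (ENSMUSG00000030336, chromosome 6, 125232622 to 125237010, minus strand) and Tnfrsf9 (ENSMUSG00000028965, chromosome 4, 150914562 to 150946102, plus strand) were at 0 counts in all 10 libraries. Tnfrsf18 lies wholly inside Gm16008, an antisense gene, and Cd27 wholly inside Vamp1, both on the opposite strand, and 91.2% of the Tnfrsf9 span lies inside Camta1, also on the opposite strand. Of the 848 protein-coding genes that lie wholly inside an opposite-strand gene, 99.2% had no read in any library, against 40.2% of the 11721 that overlap nothing. The 0 counts of Tnfrsf18 and Cd27, which are in that class, are therefore not taken as a measure of their expression. Tnfrsf9 is not in it, since its first exon lies outside Camta1, and whether its 0 counts come from the overlap was not tested. By contrast Tnfrsf4, which ends 9.55 kb before Tnfrsf18 begins and overlaps no gene, was read in every WT library.

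**Figure D3:**
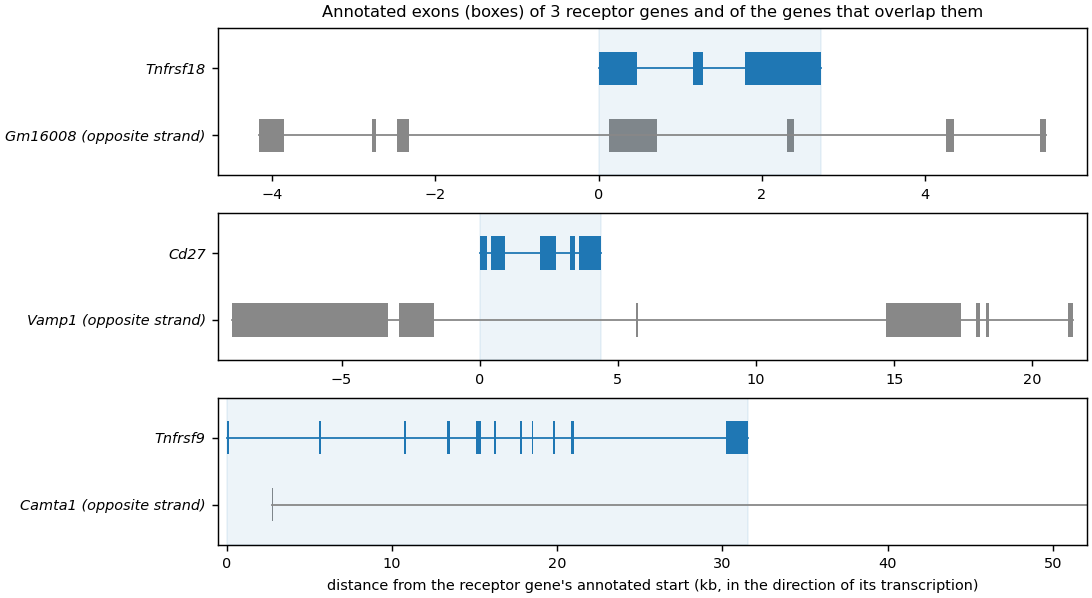
Annotated exons (boxes) of Tnfrsf18, Cd27 and Tnfrsf9 in blue and of the opposite-strand genes Gm16008, Vamp1 and Camta1 in grey, as distance in kb from the receptor gene's start in its direction of transcription. The shaded receptor span lies wholly inside Gm16008 and Vamp1, and 91.2% of it inside Camta1, which runs on beyond the right edge.

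The overlapping genes themselves held reads. Gm16008 had 0, 156, 0, 0 and 1 counts in KO libraries 1 to 5, against 1178, 2383, 686, 1184 and 1429 in WT libraries 1 to 5, and its log2 fold change of -2.78 with an SE of 1.85 did not pass (edgeR adjusted p = 0.314). Without KO library 2 it was -8.32 and passed (edgeR adjusted p = 0.00668). Vamp1, which encodes a vesicle SNARE protein, had 0, 0, 0, 0 and 1 counts in KO libraries 1 to 5, against 9735, 297, 64, 80 and 1007 in WT libraries 1 to 5 (log2 fold change -9.81, SE 2.63, edgeR adjusted p = 0.00752). The Vamp1 ratio of counts per scaled library size was 0.000749 (exact 95% interval 1.9e-05 to 0.00418), WT library 1 held 87.05% of the WT counts, and the call was lost by voom with sample quality weights (adjusted p = 0.101). Camta1 did not pass (log2 fold change 0.97, SE 1.38, edgeR adjusted p = 0.668). The strand setting of the counting is not given in the sources used here, so these reads cannot be divided between a receptor and the gene over it.

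Within a library, the mix of the 5 readable receptors does not depend on scaling. Icos made up 100%, 99.96%, 37.3%, 50.8% and 67.1% of their summed counts in KO libraries 1 to 5, against 68.9%, 61.9%, 62.7%, 75.4% and 47.8% in WT libraries 1 to 5. Tnfrsf1b took 0%, 0%, 1.06%, 47.4% and 0.685% of the sum in KO libraries 1 to 5, against 14.5%, 20.2%, 22.3%, 14.04% and 26.2% in WT libraries 1 to 5. Each WT library held all 5 receptors, with Icos as the largest share. The smaller shares varied between WT libraries, from 4.54 to 20.1% for Cd28 and from 0.996 to 7.02% for Tnfrsf25. KO libraries 1 and 2 were nearly all Icos, KO library 3 was 50.5% Cd28 (exact 95% interval 48.1 to 52.9%), and KO library 4 was divided between Icos and Tnfrsf1b. KO library 5 had 146 counts in the sum, so its Icos share has an interval of 58.9 to 74.7%. Tnfrsf4 was 0.625 to 4.25% of the sum in WT libraries. In KO libraries 1 to 4 its upper limits (exact 95%) were 0.236%, 0.152%, 0.217% and 0.317%, below every WT share. Its single count was 0.685% of the sum in KO library 5, with an interval of 0.0173 to 3.76% that reaches into the WT range.

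**Figure D4:**
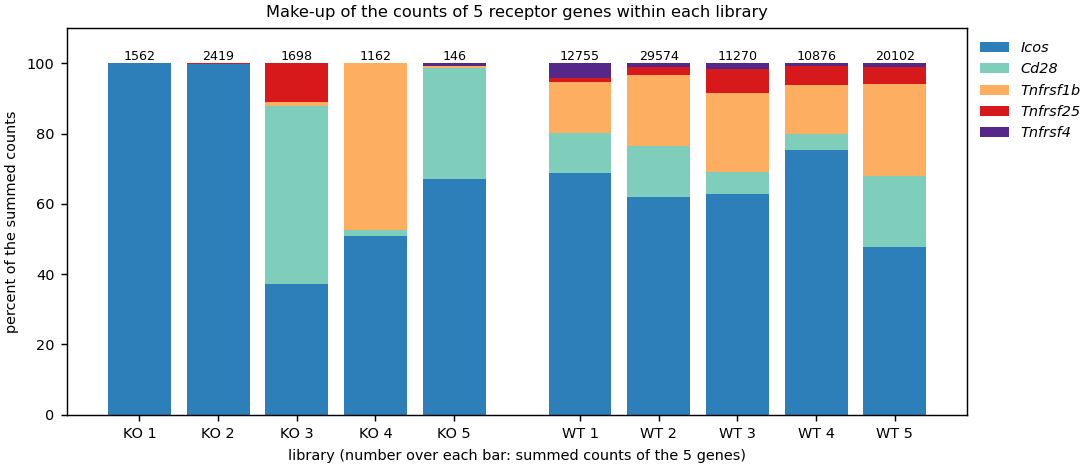
Share of each gene in the summed counts of the 5 readable receptors, in percent, 1 bar per library with KO libraries left and the sum above each bar. WT bars hold all 5 genes with Icos at 47.8 to 75.4%, and the KO bars range from Icos alone to 50.5% Cd28 in KO library 3 and 47.4% Tnfrsf1b in KO library 4.

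Levels of different receptors were compared per kilobase of merged exon, as TMM-scaled CPM per kb. In WT libraries the order by mean was Icos at 74.3 ± 26.3, Tnfrsf1b at 21.8 ± 11.2, Cd28 at 8.56 ± 6.46, Tnfrsf25 at 6.91 ± 3.55 and Tnfrsf4 at 4.84 ± 3.86 CPM per kb (SD, n = 5). Icos, at 52.9 to 119 CPM per kb, lay above Tnfrsf1b, at 8.85 to 34.9, in every WT library, while each later neighbour overlapped the next. In KO libraries the means were 141 ± 224 for Icos, 4.595 ± 8.28 for Cd28, 4.27 ± 9.12 for Tnfrsf1b, 2.28 ± 5.05 for Tnfrsf25 and 0.0642 ± 0.144 CPM per kb for Tnfrsf4 (SD, n = 5), and every neighbouring pair overlapped. Icos was the highest of the 5 in each KO and each WT library by this measure. Per kb of the longest transcript it was highest in 4 of 5 KO libraries, with Cd28 above it in KO library 3, and in all 5 WT libraries. The counting mode was not given, and whether reads in introns were counted was not tested. Cd27 shares no exon bases with Vamp1 yet was at 0, as were 99.2% of protein-coding genes wholly inside an opposite-strand gene. Levels per kb of merged exon would not suit counts taken over whole gene spans. Per kb of gene span the order by mean in WT libraries became Icos, Tnfrsf25, Tnfrsf1b, Tnfrsf4 and Cd28, so the order after Icos depends on the length used.

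By the rule fixed for genes of like pattern, the 3 genes closest to Icos over the 10 libraries were Ttll12, Ywhab and Ccndbp1, with Pearson r of 0.96, 0.959 and 0.955 and Spearman rho of 0.865, 0.879 and 0.821, of 2243 genes with a mean of at least 50 CPM. Those closest to Cd28 were Kat6a, Fbxl17 and Kdm6a, with Pearson r of 0.954, 0.932 and 0.931 and Spearman rho of 0.912, 0.888 and 0.854. Like Icos, Ywhab had most of its KO counts in KO libraries 1 and 2, with 4365 and 2304 counts there and 251, 86 and 3 in KO libraries 3 to 5. Kat6a had 1, 2, 2145, 106 and 217 counts in KO libraries 1 to 5, the order of Cd28. The points share their libraries, depths and scaling factors. Ttll12 and Ccndbp1 reached the mean of 50 CPM only through KO library 1, where they had 435 and 814 counts. Icos was also highest in that library after TMM scaling. With the 2 libraries farthest from the median left out, r was 0.857 to 0.922 for the genes closest to Icos and 0.81 to 0.901 for those closest to Cd28.

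The ligands of these receptors were mostly too low to test: 4 of 10 passed the filter, 1 was lower in KO and 0 were higher, beside 27.1% lower and 1.5% higher over all genes tested, with a median log2 fold change of 0.64. Cd80, a ligand of CD28, fell, with 1, 1, 1, 0 and 0 counts in KO libraries 1 to 5, against 862, 368, 276, 530 and 141 counts in WT libraries 1 to 5. Its log2 fold change was -6.01 with an SE of 1.47 (edgeR adjusted p = 0.00408), and its ratio of counts per scaled library size was 0.0115 (exact 95% interval 0.00238 to 0.0338). Icosl, the ligand of ICOS, had 0, 156, 1, 103 and 1320 counts in KO libraries 1 to 5, against 562, 2665, 1718, 3213 and 3758 in WT libraries 1 to 5, and did not pass (log2 fold change 1.12, SE 1.78, edgeR adjusted p = 0.706). Tnf, at a log2 fold change of 1.10, and Tnfsf4, which encodes OX40 ligand, at 0.17, did not pass either (edgeR adjusted p = 0.685 and 0.956). The sign of Icosl, Tnf and Tnfsf4 turned with other scalings or tests. Tnfsf15, which encodes TL1A, had 0 counts in KO libraries and 48 in all in WT libraries, and was not tested.

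Among 20 other TNF receptor superfamily genes 6 were tested, 4 were lower in KO and 0 were higher, beside 27.1% lower and 1.5% higher over all genes tested, with a median log2 fold change of -4.30, or -3.91 with Tnfrsf21 at its bound. Tnfrsf26, a mouse member of the family, had 1 count over the KO libraries and 1271 over the WT libraries (log2 fold change -7.07, SE 1.30, edgeR adjusted p = 0.00163), a ratio of counts per scaled library size of 0.00659 (exact 95% interval 0.000167 to 0.0368). Tnfrsf21, which encodes the death receptor DR6, was at 0 in all KO libraries and at 313 counts over the WT libraries, at least 12.4-fold lower against a limit of 3 counts over the KO group (edgeR adjusted p = 0.00349), a call that was lost with DESeq2, voom, and voom with sample quality weights (adjusted p = 0.0586, 0.0839 and 0.255). Tnfrsf10b, the mouse TRAIL receptor, and Fas, the receptor for Fas ligand, had log2 fold changes of -4.43 with an SE of 1.58 and -4.17 with an SE of 1.52 (edgeR adjusted p = 0.0435 and 0.0478). Both of these calls are near the threshold and were lost under other settings, at adjusted p up to 0.0977 and 0.115. The 2 other tested genes, Tnfrsf11a and Tnfrsf14, had log2 fold changes of 3.13 and 4.47 and did not pass (edgeR adjusted p = 0.296 and 0.233). Nearly all KO counts of Tnfrsf11a came from KO library 2, and all of Tnfrsf14 from KO library 1. Genes outside the filter went both ways. Tnfrsf19 had 2147 counts over the KO and 2 over the WT libraries, Edar 2069 and 0, and Tnfrsf12a 1 and 1249.

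Of the 3 other CD28 family genes, all tested, Btla was lower in KO and 0 were higher (27.1% and 1.5% over all genes tested), with a median log2 fold change of -3.13. Btla, an inhibitory receptor that binds a TNF receptor family member, had 0, 5, 0, 0 and 0 counts in KO libraries 1 to 5, against 209, 62, 33, 84 and 504 counts in WT libraries 1 to 5 (log2 fold change -4.48, SE 1.33, edgeR adjusted p = 0.0147). This call was lost with no filter, DESeq2, voom, voom with sample quality weights, and without KO libraries 1 and 5 (adjusted p = 0.0561, 0.0608, 0.0652, 0.0998 and 0.0826). Ctla4 had 0, 2, 1, 298 and 1 counts in KO libraries 1 to 5, against 4113, 2363, 3347, 2882 and 2160 in WT libraries 1 to 5, and did not pass (log2 fold change -3.13, SE 1.84, edgeR adjusted p = 0.248). KO library 4 held nearly all its KO counts, as it did for Tnfrsf1b, and without that library the log2 fold change of Ctla4 was -8.13 and passed (edgeR adjusted p = 0.00563). Pdcd1, which encodes PD-1, did not pass (log2 fold change -0.95, SE 1.53, edgeR adjusted p = 0.708). Ctla4 lies between Cd28 and Icos, 114 kb after Cd28 and 62.1 kb before Icos, so the 3 neighbours differed: Icos was read in all 5 KO libraries, Cd28 had over 3 counts in 3 of them and Ctla4 in 1.

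Of 17 adaptors and enzymes at TNF receptor tails 14 were tested, 1 was lower in KO and 0 were higher (27.1% and 1.5% over all genes tested), with a median log2 fold change of 0.82. Map3k14, which encodes NIK, the kinase that starts the alternative NF-kB pathway, fell to 8 counts over the KO libraries, against 12146 over the WT libraries (log2 fold change -7.23, SE 1.84, edgeR adjusted p = 0.00536). Tnfaip3, which encodes the NF-kB brake A20, was at 441, 23299, 13955, 40523 and 22156 counts in KO libraries 1 to 5, against 62585, 79525, 42831, 55368 and 54781 in WT libraries 1 to 5, and did not pass (log2 fold change 1.55, SE 0.85, edgeR adjusted p = 0.214). Tnfaip3 passed as higher without KO library 1 (2.01, edgeR adjusted p = 0.013) and with DESeq2 (2.17, adjusted p = 0.0411). Birc2, a ubiquitin ligase that binds TRAF2, drew 6634 of 7363 KO counts from KO library 3 and did not pass (log2 fold change 3.47, SE 2.03, edgeR adjusted p = 0.245). Map3k7, which encodes the kinase TAK1, did not pass (log2 fold change 1.88, SE 1.64, edgeR adjusted p = 0.459). The sign of Birc2 and Map3k7 turned under other tests.

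All 11 NF-kB subunits, inhibitors and kinases on the list were tested and 0 passed in either direction by edgeR, with a median log2 fold change of -0.37. Those with the smallest p were Nfkbia, the inhibitor IkB-alpha, at 4.01 with an SE of 1.66 (edgeR adjusted p = 0.0858), Ikbkb, a kinase of the inhibitor, at -2.90 with an SE of 1.45 (edgeR adjusted p = 0.166), Relb at -2.83 with an SE of 1.75 (edgeR adjusted p = 0.274) and Rel at -2.15 with an SE of 1.44 (edgeR adjusted p = 0.319). By the exact permutation test 3 of the 11 genes were lower in KO and 0 were higher, beside 32.2% and 0.975% of all genes tested. Of the 12233 KO counts of Nfkbia 10027 came from KO library 5, and its log2 fold change was -0.34 without KO libraries 1 and 5 and -0.07 with voom. Nfkbia passed as higher in 6 alternatives: with DESeq2 (5.31, adjusted p = 0.00368), with RLE size factors (5.42, edgeR adjusted p = 0.0445), and with any 1 of KO libraries 1 to 4 left out (4.38 to 4.81, edgeR adjusted p = 0.0198 to 0.0496). Ikbkb, Relb and Rel passed as lower with voom (adjusted p = 0.045, 0.0326 and 0.0279).

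Of 15 signal transducers of ICOS and CD28 14 were tested, 2 were lower in KO and 0 were higher (27.1% and 1.5% over all genes tested), with a median log2 fold change of 1.84. Tbk1, a kinase that binds the ICOS tail, had 0, 1, 0, 1 and 0 counts in KO libraries 1 to 5, against 704, 554, 770, 813 and 819 counts in WT libraries 1 to 5 (log2 fold change -7.81, SE 1.54, edgeR adjusted p = 0.00163). Akt1, a kinase downstream of PI3-kinase, had 0, 1, 1, 0 and 1 counts in KO libraries 1 to 5, against 157, 1578, 1497, 2611 and 1434 counts in WT libraries 1 to 5 (log2 fold change -7.87, SE 1.85, edgeR adjusted p = 0.00297). Their ratios of counts per scaled library size were 0.00458 (exact 95% interval 0.000554 to 0.0166) and 0.00345 (0.000712 to 0.0101). Pik3ca, a catalytic subunit of PI3-kinase, did not pass (log2 fold change 3.19, SE 1.61, edgeR adjusted p = 0.17). Pik3ca passed as higher with DESeq2 (3.51, adjusted p = 0.0255), without KO library 1 (3.55, edgeR adjusted p = 0.0295) and without KO libraries 1 and 5 (3.76, edgeR adjusted p = 0.0179).

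**Figure D5:**
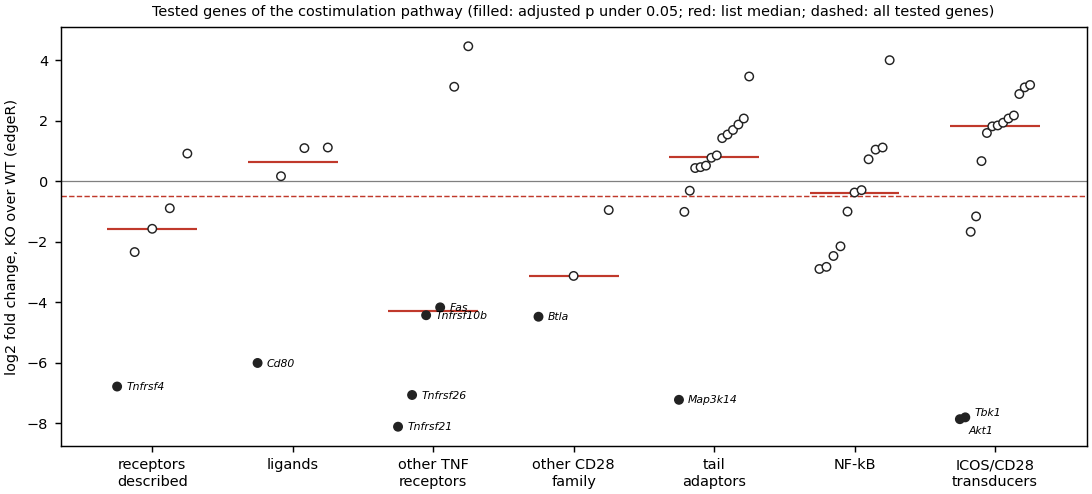
log2 fold change of KO over WT from edgeR for each tested gene of the receptor set and of 6 related lists, filled and named where the adjusted p was under 0.05, with list medians in red and the median of all genes tested, -0.47, dashed. The filled points lie between -4.17 and -8.12, and no gene above 0 passed.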

How the data were processed

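Total RNA of sorted lung ILC2 was sequenced as 5 KO and 5 WT libraries with a strand-specific kit, per the labels' protocols. The deposited values are raw counts of reads per gene, whole numbers without normalization, and the depth of each library is their sum. Per the submitters' processing notes the tools were STAR 2.6.0c, SAMtools 1.8 and HTSeq 0.9.1, and the build GRCm38. The annotation release, counting mode and strand setting were not given in the sources used here. Library numbers follow the order of deposit within a genotype and pair no libraries.

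KO was compared with WT in edgeR 4.0.16 (R 4.3.3), with genes kept by filterByExpr, TMM scaling, the quasi-likelihood test and Benjamini-Hochberg adjustment over the 7490 genes kept, at 0.05. The quasi-likelihood test itself reports no SE. Each SE printed with an edgeR fold change was worked back from that fold change and its F statistic. Such an SE restates the test and is not a separate estimate of sampling error. This matters most for genes near 0 counts in KO libraries. Levels are in TMM-scaled CPM except where CPM by library size are given. Two-sided exact permutation tests used the difference of mean log2(CPM + 1) over all ways to form 5 against 5. Intervals are exact (95%), and a gene with at most 3 counts was called missing in a library; the libraries carry no molecular identifiers, so both cover counting error only. Of the 54838 rows, 54723 were found in the GENCODE annotation (GRCm38) that gave spans, exons and overlaps. Promoters are from RefSeq. The procedure was tested on simulated data.

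The receptor genes and the lists were chosen with earlier results of these data known. Named by rule were the 9 receptor genes, Maf, up to 4 tested genes of each list by smallest edgeR p, any gene that passed where 5 or fewer of its list did, genes that overlap or neighbour a receptor gene, and 3 genes of like pattern for each of the 2 receptors with the highest mean log2 level. Other genes, such as Tnfsf15 and single markers, were named after their values were seen. Not every gene covered by the rule is reported here. Alternatives were RLE size factors, library size alone, other filters, DESeq2 1.42.0, limma 3.58.1 voom with and without sample quality weights, the permutation test, counts without globin and mitochondrial genes, thinned counts, leaving out libraries, and other gene lengths.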

Additional observations from a re-analysis of the deposited data

Results flagged for a closer look

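In 6 instances 1 library stood apart from the other 4 of its group. The gap to the next library was most of the group's range on the TMM-scaled CPM scale. Of the 6 instances, 5 were in KO libraries, where such patterns were common. Among genes with at least 10 counts over the KO libraries, 50.7% had 90% or more of them in 1 library. The share was 0.174% for genes counted the same way over the WT libraries. Icos was at 1838 CPM in KO library 1. Cd28, at 117.5 CPM, and Tnfrsf25, at 25.75 CPM, stood apart in KO library 3, and Tnfrsf1b, at 78.56 CPM, in KO library 4. Tnfrsf4 was at 0.4381 CPM in KO library 5, which is a single count against 0 in the other 4 KO libraries. The only WT instance was Tnfrsf1a, at 0.6859 CPM or 31 counts in WT library 4, with 0 in the other 4 WT libraries. The cause was not tested.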

How the results depend on the processing

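Tnfrsf4 was lower in KO at an adjusted p under 0.05 in all 20 alternatives that could test it, with adjusted p from 0.000895 to 0.0464 and log2 fold changes of -10.54 to -2.57. It could not be tested with counts thinned to the smallest total, since it did not pass the filter there. Receptor genes called lower in KO numbered 1 in the report, 2 with voom, 3 with voom and sample quality weights (Tnfrsf4, Tnfrsf1b and Tnfrsf25), 0 with thinned counts, and 1 to 2 when single libraries were left out. Of 25 values in KO libraries, 11 to 14 were missing under limits of 0 and 10 counts or after thinning, against 14 in the report.

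The count of all genes lower in KO was 2027 in the report. It was 1263 with thinned counts, 3291 without KO libraries 1 and 5, and 1734 to 3350 when single libraries were left out. The count of genes higher in KO was 112 in the report, and it was 193 with RLE size factors, 49 with library size alone, 2345 with no filter, 365 with a mean of at least 100 counts, 1512 with DESeq2, 71 with voom, 73 with the permutation test, 49 with thinned counts, 348 without KO libraries 1 and 5, and 82 to 333 when single libraries were left out. Lower calls were 94.8% of all calls in the report, against 56.3% with no filter, 83.8% with a mean of at least 100 counts and 63.3% with DESeq2. The median log2 fold change of all genes tested was -0.47 in the report, 0.09 with RLE, -1.77 with library size alone and -3.58 with voom, so directions of single genes are relative to these.

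These log2 fold changes turned their sign, and the cause was not tested. Over single libraries left out, Icos ranged from -0.83 to 1.73, Icosl from -2.55 to 1.88, Tnf from -0.18 to 1.48 and Tnfsf4 from -6.50 to 0.59. Icos turned to -1.52 with library size alone, -0.58 with voom, -0.44 with quality weights, -0.40 with the permutation test, -0.57 without KO libraries 1 and 5 and -0.83 without KO library 1; it was 3.07 with RLE and 2.96 with DESeq2 (adjusted p = 0.0701). Icosl turned to -0.24, -2.78, -2.34, -2.08 and -2.18 under the first 5 of those settings and to -2.55 without KO library 5. Tnfsf4 turned to -1.05 with library size alone, -0.17 with no filter, -2.49 with voom, -2.44 with quality weights, -1.23 with the permutation test, -6.50 without KO library 2 (edgeR adjusted p = 0.00933), -0.08 without WT library 3 and -0.09 without WT library 4. With voom, quality weights and the permutation test, Tnf turned to -2.29, -1.72 and -0.69, Birc2 to -2.33, -1.39 and -0.49, and Map3k7 to -1.22, -0.87 and -0.47. Tnf also turned to -0.18 without KO library 3, Nfkbia to -0.07 with voom and -0.34 without KO libraries 1 and 5, and Camta1 to -0.10 with library size alone. Of all values of single named genes under an alternative, 550 kept direction and side of the threshold, 41 passed it newly, 34 lost it and 33 turned. Per kb of gene span, an alternative chosen after seeing the data, Icos was the highest receptor in 4 of 5 KO and 5 of 5 WT libraries, but the order of the others changed: in WT libraries it became Icos, Tnfrsf25, Tnfrsf1b, Tnfrsf4 and Cd28, and in KO libraries Icos, Tnfrsf25, Cd28, Tnfrsf1b and Tnfrsf4.

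No paired analysis was possible because the labels give no replicate number shared by a KO and a WT library. Depth limits every statement about a gene near 0 in KO: 3 counts correspond to 0.411 to 3.53 CPM in KO libraries and 0.0664 to 0.0901 CPM in WT libraries. The groups also differ in spread, since the coefficient of variation of Icos was 159% in KO and 35.3% in WT libraries, so a missed threshold does not show equal levels.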
